A study of Mus musculus with 23 samples.

Results

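Immediate early genes are switched on in neurons soon after synaptic activity, without the need for new protein synthesis, and their RNA is short-lived. Most of them encode transcription factors that carry the activity signal to later target genes, and Arc encodes an effector that acts at synapses, so the set is widely used to map which brain areas were recently active. Calcium and cAMP signals reach these genes through CREB, and MAP kinase signals through serum response factor.

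The members were the 10 genes Fos, Fosb, Junb, Egr1, Egr2, Egr3, Egr4, Nr4a1, Npas4 and Arc, found by their symbols in the array annotation. They made up 10 rows of the 31395 rows of the log2 table, 1 probe for each gene. RNA of 8 female C57BL/6 mice, 5 weeks old at the start, was hybridized to 23 Agilent arrays with a single dye. SC mice (lean group, L52, L54, L56 and L58) ate standard chow for 8 weeks, and CM mice (obese group, O52, O54, O56 and O58) could choose freely between that chow and a chocolate mixture. An 11-day battery of behavioral tests followed, in which SC mice were also offered the chocolate mixture, and each group was back on its own diet for days between the restricted feeding tests and dissection. The time of the last meal or handling on the day of dissection is not given in the sources used here. The tissues were the striatum (ST), the frontal cortex (FC) and the hypothalamus (HT). Each group held 4 arrays, 1 for each mouse, except CM FC with 3 arrays (O54, O56 and O58). The sample labels call the HT tissue thalamic while the protocol calls it hypothalamus. P-values rest on the spread between arrays of the same group, pooled over the 23 arrays of these 8 mice, and not on mice alone. In whole tissue, fewer expressing cells and less RNA per cell cannot be told apart.

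Of 6 motifs searched, the CREB core (the bases TGACG, on either strand) was the one found in the most members, and it also lies within the full site. RefSeq promoters (GRCm38.p6) matched 7 of the 10 members, and Arc, Egr1 and Egr3 had no entry. In the 250 bases before an annotated start of transcription, 7 of 7 members held the core, against 19.8% of the 27025 genes searched. The stretches are shown because they hold these sites, in capitals (CGTCA is the core read on the other strand), and because the 3 genes whose start was the first base of the annotated gene could be shown at 200 bases. For the other 4 genes, 30 bases were taken.
Fos, chr12:85473690-85473889, + strand: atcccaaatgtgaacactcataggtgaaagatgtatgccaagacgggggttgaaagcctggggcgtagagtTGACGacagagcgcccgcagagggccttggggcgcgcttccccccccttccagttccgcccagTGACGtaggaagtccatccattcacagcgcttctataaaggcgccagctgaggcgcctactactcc
Fosb, chr7:19310089-19310118, - strand: atggagttgcgggTGACGcaagcgcggggg
Junb, chr8:84978749-84978948, - strand: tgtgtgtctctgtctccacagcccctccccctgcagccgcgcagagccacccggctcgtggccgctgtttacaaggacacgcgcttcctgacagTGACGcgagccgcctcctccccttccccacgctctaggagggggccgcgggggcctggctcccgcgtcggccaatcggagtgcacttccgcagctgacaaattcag
Egr2, chr10:67537791-67537820, + strand: ctcagtCCATATATGGgcagcgaCGTCAcg
Egr4, chr6:85513590-85513789, - strand: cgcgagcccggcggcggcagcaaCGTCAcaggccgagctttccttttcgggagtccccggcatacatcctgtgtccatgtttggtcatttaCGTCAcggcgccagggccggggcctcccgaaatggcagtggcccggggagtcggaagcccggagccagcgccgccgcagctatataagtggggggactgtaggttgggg
Nr4a1, chr15:101266610-101266639, + strand: ctgCGTCAatggaaccccgcgtgCGTCAcg
Npas4, chr19:4990129-4990158, - strand: ccgttcgaCGTCAcgggaTGACGtcggaag

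The full CREB site TGACGTCA was found in 0 of 7 members and in 1.77% of all genes. A CArG box, the binding site of serum response factor, is the other capitalized run in the Egr2 stretch. It was found in 1 of 7 members, against 1.62% of genes. The EGR site GCGGGGGCG was found in 2 of 7 members (Fosb and Nr4a1, 2.93% of genes), the TATA box TATAAA in Fos alone (14.3% of genes) and the AP-1 site TGANTCA in 0 of 7 (7.82% of genes). These matches describe letters within a short window and carry no measurement of binding.

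The array files place each probe on the mm9 build. The Fos probe lay at chr12:86817900-86817959, Fosb at chr7:19888168-19888227, Junb at chr8:87501881-87501940, Egr2 at chr10:67004798-67004857 and Egr3 at chr14:70479222-70479281. The Egr4 probe lay at chr6:85461153-85461212, Nr4a1 at chr15:101105071-101105130, Npas4 at chr19:4984356-4984415 and Arc at chr15:74499592-74499651, and the Egr1 probe on chromosome 18. Which part of the transcript each probe covers was not worked out, since no genome of that build was used here. Values are normalized log2 intensities, so a difference of 1 is a doubling, and levels of different probes are not compared with each other. Spots were well above background on all 23 arrays for 8 of the 10 genes, on 21 arrays for Egr2 and on 16 for Egr3. Fos was printed at 10 spots, whose SD within an array had a median of 0.15. The standard error of an array mean over these spots had a median of 0.046, against an SD of 0.11 to 0.34 between arrays of a group.

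Arrays sat on 3 slides, and slide was not balanced over the groups. The CM arrays of a region shared a slide (ST slide 1, HT slide 2, FC slide 3), and SC FC arrays were on slides 1 and 2 alone. No slide therefore held both diets of FC. Slide 1 held 1 SC ST array beside the 4 CM ST arrays, and slide 2 held 1 SC HT array beside the 4 CM HT arrays. Spots well above background numbered 36432 to 38472 on SC FC arrays and 41481 to 42261 on CM FC arrays. Of 8 striatum markers, all 8 were higher in ST than in FC on SC, and all 6 cortex markers were lower in HT than in FC. All 6 thalamus markers were higher in HT than in FC, as were 4 of 8 hypothalamus markers, with Pmch, Hcrt, Oxt and Avp passing and Agrp (+0.79, adjusted p = 0.446), Pomc (+0.48, adjusted p = 0.631) and Nr5a1 (+0.65, adjusted p = 0.105) not. Npy, also on that list, was lower. The HT tissue thus carried RNA of both structures.

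**Figure D1:**
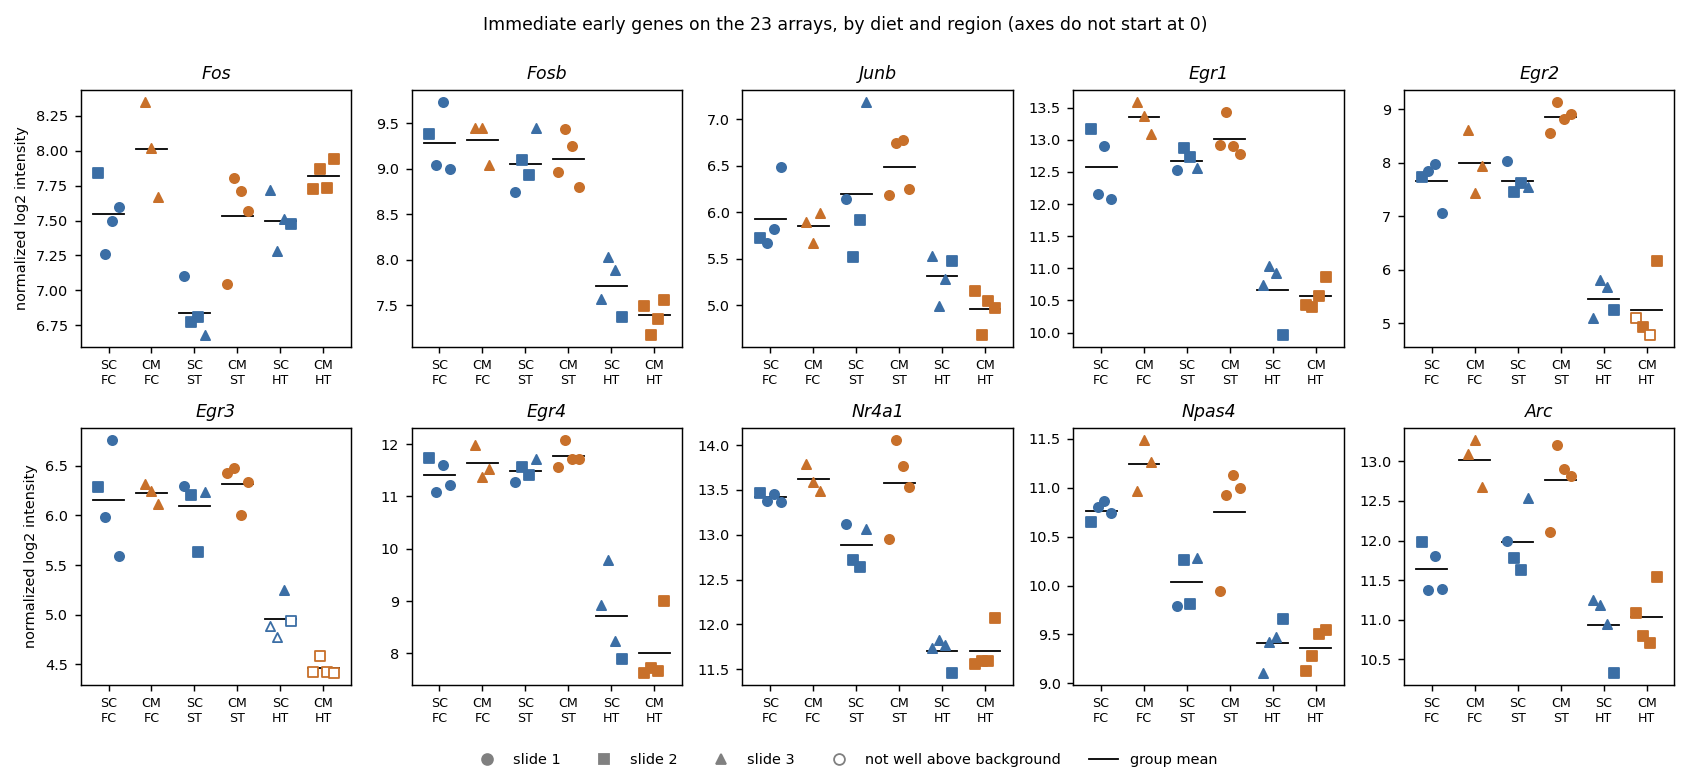
Normalized log2 intensity of each of the 10 genes on every array, in 1 panel a gene, with SC in blue, CM in orange, the slide as the marker shape and the group mean as a line. HT arrays lay below FC and ST arrays for most genes, and open markers show that all 4 CM HT arrays of Egr3 were not well above background.

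Arc, Egr1 and Fos differed between diets in FC, and all 3 were higher in CM mice. These 3 of 10 genes stood against 15.4% of all rows higher, 13.2% lower and 28.6% called in either direction (limma, adjusted p under 0.05), so the share of members called in either direction was near the background. The median difference of the 10 genes was 0.25, with 9 of 10 above 0, against -0.04 for all rows.

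Arc encodes a cytoskeletal protein that is translated at dendrites and removes AMPA receptors from synapses. In SC FC its level was 11.98 (L52), 11.37 (L54), 11.81 (L56) and 11.39 (L58), and in CM FC 13.09 (O54), 13.27 (O56) and 12.67 (O58). Every CM array lay above every SC array. The difference was 1.44 ± 0.28 (SE), or 2.72-fold (limma, adjusted p = 0.00077). Arc was the only member past the fold and p thresholds of the study in FC (2-fold and an adjusted p under 0.01), which 2.94% of all rows passed.

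Egr1 encodes a zinc finger transcription factor used as a marker of recent plasticity. Its SC FC levels were 13.16, 12.15, 12.90 and 12.08 in L52, L54, L56 and L58, and its CM FC levels 13.59, 13.37 and 13.09 in O54, O56 and O58. The SC arrays spread over more than 1 log2 unit, and 1 of them (L52) reached above the lowest CM array, so the groups overlapped. The difference was 0.83 ± 0.23 (limma, adjusted p = 0.010). It did not pass without SC FC L54 (0.69, adjusted p = 0.060) or without SC FC L58 (0.56, adjusted p = 0.075), over a range of 0.0039 to 0.998 in all alternatives.

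Fos encodes a subunit of AP-1, a dimer of Fos and Jun proteins. Its SC FC levels were 7.84, 7.26, 7.50 and 7.60 in the same order, and its CM FC levels 8.35, 8.02 and 7.67. The lowest CM array lay below SC L52. The difference of 0.52 ± 0.19 passed narrowly (limma, adjusted p = 0.047) and was kept in 6 of the 23 fits that left out 1 array.

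The other AP-1 members in FC were near 0, with Fosb at 0.00 (95% interval -0.39 to 0.40) and Junb at -0.14 (-0.60 to 0.33). Among the other Egr genes, which encode related zinc finger factors, the differences were 0.29 for Egr2, 0.03 for Egr3 and 0.22 for Egr4. Npas4, an activity factor that shapes inhibitory synapses, was at 0.48 ± 0.25 (limma, adjusted p = 0.154), with all 3 CM arrays (10.97, 11.49 and 11.26) above the 4 SC arrays (10.65 to 10.87). Nr4a1, an orphan nuclear receptor, was at 0.21, and its CM arrays (13.48 to 13.79) also lay above its SC arrays (13.37 to 13.47). Arc, Npas4 and Nr4a1 were thus the 3 members whose FC arrays did not overlap between diets, with CM higher, as held for 13.2% of all rows (12.1% with CM lower).

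A fit with slide as a fixed block borrows the slide differences from the other regions. In it, 0 of 10 members and 0 of 31395 rows passed in FC (limma, 0 members and 2219 rows at an unadjusted p under 0.05). Arc then stood at 0.55 (adjusted p = 0.928), Egr1 at 0.02 (0.998) and Fos at 0.53 (0.878), so the estimate for Egr1 went to nearly 0 and that for Arc fell to less than 1.5-fold. As a random block, slide left 1 member passing. Diet and slide cannot be told apart within FC. Of 8 striatum markers 1 was lower in CM FC (Drd2, -1.58), and the median over all 8 was -1.14. Their mean level overlapped between diets, at 9.98 in SC L52 and 11.74 to 12.29 in the other SC FC arrays, and at 9.92, 10.29 and 12.25 in CM O54, O56 and O58. Their part in the result was not tested.

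In ST all 10 members were higher in CM than in SC mice by estimate, and 2 passed: Fos and Nr4a1. These 2 stood against 3.45% of all rows higher, 6.37% lower and 9.82% called in either direction. The median difference was 0.61, against 0.03 for all rows, where 54.5% of rows were above 0. Markers of other tissue also lay higher in CM ST without passing, with a median of 1.21 over 4 choroid plexus markers and of 0.59 over 3 red blood cell markers (0 of each passed). The mean level of the choroid plexus markers was 13.77 in CM ST O58 and 8.14 to 10.09 on the other ST arrays. Their part in the result was not tested.

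The Fos levels in SC ST were 7.10, 6.77, 6.81 and 6.68 in L52, L54, L56 and L58, and those in CM ST 7.04, 7.81, 7.71 and 7.57 in O52, O54, O56 and O58. One CM array (O52) lay within the SC range and the other 3 lay above it. The difference was 0.69 ± 0.21, or 1.61-fold (limma, adjusted p = 0.044), and the call was kept in 11 of the 23 fits that left out 1 array.

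Nr4a1 in SC ST was at 13.12, 12.72, 12.64 and 13.07, and in CM ST at 12.95, 14.06, 13.77 and 13.53. Again O52 fell among the SC arrays, and the other CM arrays were above them. The difference was 0.78 ± 0.23, or 1.72-fold (limma, adjusted p = 0.037). It did not pass without SC ST L56 (adjusted p = 0.056), CM ST O54 (0.097) or CM ST O56 (0.094), over a range of 0.0074 to 1 in all alternatives.

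Egr2 had the largest estimate in ST but just missed the limit. Its SC ST arrays were at 8.03, 7.45, 7.62 and 7.54, and its CM ST arrays at 8.54, 9.13, 8.82 and 8.91, with no overlap. The difference was 2.29-fold (95% interval 0.38 to 2.02 on the log2 scale, limma, adjusted p = 0.057). Egr2 was the only member whose ST arrays did not overlap between diets, as 4.96% of all rows did with CM higher and 2.7% with CM lower.

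Arc in SC ST was at 11.99, 11.78, 11.63 and 12.53, and in CM ST at 12.11, 13.21, 12.91 and 12.82, so O52 was again the lowest CM array and lay below SC L58. The difference was 0.91 ± 0.30 (limma, adjusted p = 0.061). Npas4 in CM ST was at 9.95 in O52 and at 10.92 to 11.13 in the other 3, against 9.79 to 10.28 in SC ST (0.74 ± 0.27, limma, adjusted p = 0.092). Junb (0.53), Egr3 (0.36), Egr4 (0.29), Egr1 (0.28) and Fosb (0.13) had smaller differences and did not pass (limma, adjusted p = 0.178 to 0.75). Differences are weighted by array, and the plain Junb means were 6.49 in CM ST and 6.20 in SC ST. No member passed the thresholds of the study in ST, which 0.602% of all rows did.

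The ST count depended on several arrays. Without CM ST O52, 4 members passed, with Arc at 1.17 (limma, adjusted p = 0.014) and Npas4 at 1.06 (0.0078), and 2 of the 10 passed the thresholds of the study. Without CM ST O54 or without CM ST O56, 0 passed. Without SC ST L54, 5 passed, with Egr2, Arc and Npas4 added. SC ST L54 had the highest mean level of cortex markers among the ST arrays (10.4, against 7.06 to 9.62).

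Within slide 1, where the 4 CM ST arrays stood beside SC ST L52, all 10 differences were above 0, with a median of 0.47 and a range of 0.02 for Egr3 to 0.96 for Npas4. The fixed slide block also left all 10 above 0, with a median of 0.64, and 0 of 10 members and 0 of all rows passed (limma, 4 members and 1408 rows at an unadjusted p under 0.05). SC ST L52 had the highest mean level of hypothalamus markers among the ST arrays (11.87, against 7.88 to 10.07 on the others) and of thalamus markers (9.80, against 7.69 to 9.29). The part of that tissue in the within-slide values was not tested.

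In HT no member passed between diets (limma, 0 of 10, with 3 at an unadjusted p under 0.05), where 0.43% of all rows did (0.124% higher and 0.306% lower). Estimates were below 0 for 9 of 10 genes, with a median of -0.29 against 0.01 for all rows. This depended on the array weights. Without them, 7 of 10 were below 0, with a median of -0.16 against 0.00 for all rows. The markers of 2 other regions also lay lower in CM HT without passing, with a median of -0.40 over 8 striatum markers and of -0.42 over 6 cortex markers, and their part was not tested. The 1 gene above 0 in the fit with array weights was Fos, at 0.33 ± 0.16 (limma, adjusted p = 0.386). Its CM HT arrays, at 7.73, 7.87, 7.73 and 7.94, lay above its SC HT arrays, at 7.72, 7.28, 7.51 and 7.48. The Fos arrays therefore did not overlap, as 3.74% of all rows did with CM higher.

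The lowest estimates in HT were those of Egr4 (-0.75 ± 0.30, limma, adjusted p = 0.28), Egr3 (-0.55 ± 0.16, 0.123) and Fosb (-0.42 ± 0.16, 0.23). Egr3 was not well above background on any CM HT array and on 1 of 4 SC HT arrays, so this difference is mostly one between dim spots. Its arrays did not overlap between diets, as 3.03% of all rows did with CM lower. Egr4 was at 8.93, 9.78, 8.23 and 7.89 in L52, L54, L56 and L58 and at 7.62, 7.72, 7.65 and 8.99 in O52, O54, O56 and O58. The highest of these, SC HT L54, also had the highest striatum markers of the HT arrays (11.70, against 10.07 to 10.81). Without CM HT O58 the Egr4 difference was -0.99 (limma, adjusted p = 0.0872). With slide as a fixed block it was -0.29, and within slide 2, against SC HT L58 alone, it was 0.11.

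Junb (-0.35), Egr2 (-0.39), Egr1 (-0.22), Nr4a1 (-0.05), Npas4 (-0.05) and Arc (0.00) completed the HT comparison. Egr2 was well above background on 2 of 4 CM HT arrays. The interval for Arc ran from -0.48 to 0.48, so a difference within it was not detectable. Within slide 2, where the 4 CM HT arrays stood beside SC HT L58, 7 of 10 differences were above 0 with a median of 0.07 and a range of -0.51 (Junb) to 0.70 (Arc). SC HT L58 had the highest hypothalamus markers of the HT arrays (13.41, against 9.88 to 12.55) and the lowest thalamus markers (10.33, against 11.24 to 11.81). In the fit with the fixed slide block, 5 of 10 members were above 0 and 0 passed.

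**Figure D2:**
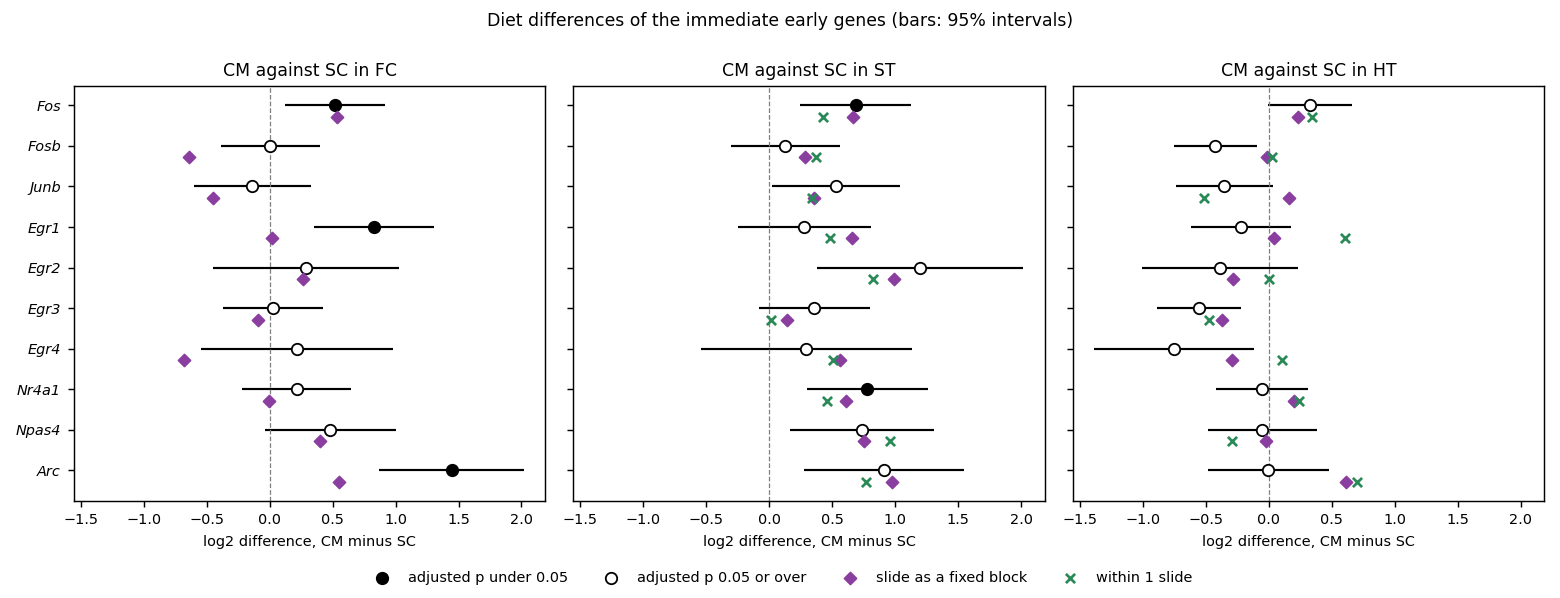
Log2 difference of CM minus SC for each gene in FC, ST and HT, with 95% intervals and filled circles for an adjusted p under 0.05. Diamonds give the estimate with slide as a fixed block and crosses the difference within 1 slide, and in ST all of these lay above 0 whereas in FC the diamonds were spread on both sides of it.

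Whether the diet difference itself differed between regions was tested for each pair of regions. Between HT and FC it differed for Arc (-1.45 ± 0.37, limma, adjusted p = 0.0088) and Egr1 (-1.05 ± 0.30, adjusted p = 0.020), with the diet difference lower in HT, where 20% of all rows differed (12.3% lower and 7.66% higher). Both estimates changed sign when slide was a fixed block, to 0.06 for Arc and 0.02 for Egr1 (adjusted p = 1 for both). Between ST and FC no member differed (limma, 0 of 10 at an unadjusted p under 0.05 as well), where 30.1% of all rows did (14.2% higher and 16% lower). Between HT and ST all 10 estimates were below 0, with a median of -0.86 and the lowest in Egr2 (-1.58), but neither a member nor any of the 31395 rows passed (limma, 6 members and 4658 rows at an unadjusted p under 0.05).

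For 8 of 10 members the difference between HT and FC on SC was larger in size than any of the 3 diet differences. On SC, 8 of 10 genes were lower in HT than in FC (20.4% of all rows lower, 43.2% called), and the 2 that did not pass were Fos and Arc. The median difference of the 10 was -1.46, against 0.02 for all rows.

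Egr4, which encodes a zinc finger factor like Egr1, fell by the most. Its FC arrays on SC were at 11.74, 11.08, 11.61 and 11.22, and its HT arrays, given above, lay at 9.78 or lower. The difference was -2.73 ± 0.40, or 6.62-fold (limma, adjusted p = 2.5e-05). Egr2 was at 7.72, 7.84, 7.98 and 7.05 in FC and at 5.10, 5.81, 5.66 and 5.24 in HT (-2.12 ± 0.39, limma, adjusted p = 0.00024). Neither gene overlapped between the regions.

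Egr1 was at 10.74, 11.04, 10.92 and 9.96 in SC HT, below each of its FC arrays (-1.77 ± 0.25, limma, adjusted p = 1.7e-05). Nr4a1 was at 11.74, 11.83, 11.77 and 11.46 in SC HT and at 13.37 to 13.47 in SC FC (-1.68 ± 0.23, adjusted p = 1.1e-05). Fosb (-1.55), Npas4 (-1.37) and Egr3 (-1.18) also fell, with adjusted p from limma of 8.9e-06, 0.00051 and 0.00018. For Egr3, 1 of 4 SC HT arrays was well above background.

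Junb, a Jun family partner that often restrains c-Jun, fell by 0.68 in HT against FC (limma, adjusted p = 0.029). It did not pass without SC HT L54 (0.101), SC HT L56 (0.095) or SC FC L58 (0.121). Fos was at -0.03 (95% interval -0.47 to 0.41), the smallest difference of the 10. Arc was at -0.65 ± 0.30 (limma, adjusted p = 0.090), although its 4 HT arrays (10.33 to 11.25) lay below its 4 FC arrays (11.37 to 11.98). In all, 9 members lay lower in HT without overlap, as 16.4% of all rows did (15.9% higher).

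Against ST, 6 genes were lower in HT on SC (10.8% of all rows lower) and Fos was higher (10.7% higher, 21.5% called in all). Arrays lay lower without overlap for 8 genes (11.6% of all rows) and higher for Fos (10.1%). The 6 were Egr4 (-2.79), Egr2 (-2.10), Egr1 (-1.96), Fosb (-1.22), Nr4a1 (-1.04) and Egr3 (-0.91), with adjusted p from limma of 2e-05 to 0.0058. Egr3 was well above background on 1 of 4 SC HT arrays. Arc (-0.85, adjusted p = 0.068), Junb (-0.69, 0.064) and Npas4 (-0.55, 0.205) did not pass. Fos in SC HT lay above all its SC ST arrays, by 0.66 ± 0.22 or 1.58-fold (limma, adjusted p = 0.039). It was not called in 6 of the 23 fits that left out 1 array, those without SC HT L52, L56 or L58, SC ST L56 or L58, or SC FC L58.

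When slide was a fixed block, 5 members and 4659 of 31395 rows passed in HT against FC, since Junb (-0.95, limma, adjusted p = 0.166), Egr2 (-2.11, 0.056) and Npas4 (-1.43, 0.058) did not. In HT against ST 8 passed, with Junb and Arc added and Fos lost (0.69, limma, adjusted p = 0.181). The same block without array weights, a setting added after seeing the data, gave 9 of 10 members in HT against FC (9575 rows) and 10 of 10 in HT against ST (10371 rows). On slide 2, which held 1 SC array of each of FC and HT and 2 of ST, all 10 genes were lower in HT than in FC and 9 of 10 lower than in ST.

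ST and FC did not differ in any member on SC (limma, 0 of 10, with 3 at an unadjusted p under 0.05), where 14.9% of all rows were called (7.71% higher and 7.22% lower). Npas4 (-0.82, adjusted p = 0.092), Fos (-0.69, 0.065) and Nr4a1 (-0.64, 0.114) had the lowest estimates, and the ST arrays of these 3 lay below the FC arrays without overlap, as 6.23% of all rows did (5.2% above). Regions of a mouse are paired, and with the mouse as a fixed block Fos (-0.71, limma, adjusted p = 0.022) and Npas4 (-0.77, 0.018) passed in ST against FC, and Junb (-0.72, 0.033) and Npas4 (-0.56, 0.027) in HT against ST. Without CM ST O52, 3 members passed in ST against FC, and without SC ST L54, 2.

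On CM, each region sat on a slide of its own, so region and slide cannot be told apart, and the values are given without a test. In HT 9 members lay below FC without overlap (27.6% of all rows, 28.8% above), and 9 below ST (23.5%, 26.8% above). Junb lay higher in ST than in FC (0.63), as 30.3% of all rows did (29% lower). The differences of means against FC ran from -3.63 for Egr4 to -0.89 for Junb, with Fos at -0.19. By group means, Egr3 was 3.40-fold higher in CM FC and 3.61-fold higher in CM ST than in CM HT. It was not well above background on any CM HT array, so these folds rest on dim spots and are not bounds. Egr2 was well above background on 2 of 4 CM HT arrays.

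**Figure D3:**
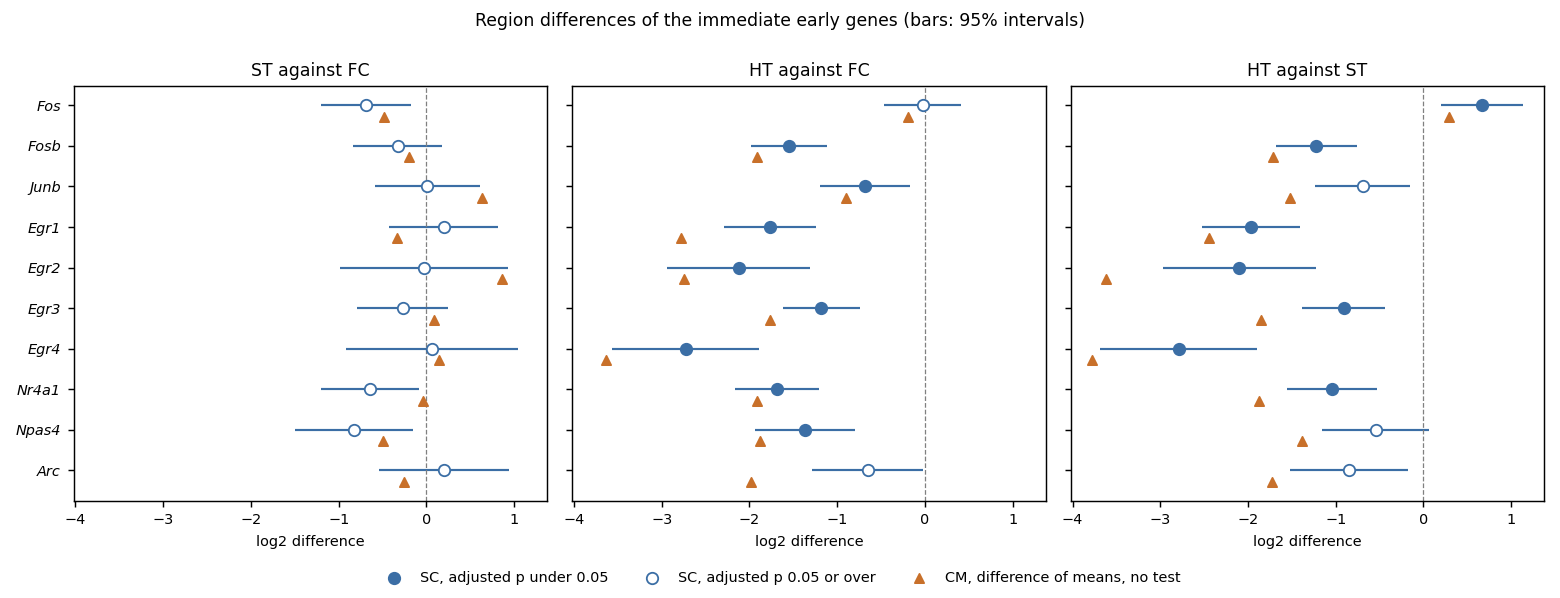
Log2 difference between regions for each gene, on SC with 95% intervals (blue, filled for an adjusted p under 0.05) and on CM as the difference of means (orange, no test). Most genes lay well below 0 in both panels with HT, and Fos lay at -0.03 against FC and at 0.66 against ST on SC.

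The order of the 6 groups differed between members. CM FC had the highest mean for Fos, Fosb, Egr1, Nr4a1, Npas4 and Arc, and CM ST for Junb, Egr2, Egr3 and Egr4. An HT group was lowest for 9 genes, while for Fos it was SC ST, whose mean (6.84) lay below the next group (SC HT, 7.50) without overlap. Few neighbours in the order were separate. For Fosb, Junb, Egr1, Egr2 and Egr4 the only gap without overlap was that between the lowest FC or ST group and SC HT. Egr3 had this gap and another between SC HT and CM HT. For Nr4a1 there were 2 gaps, between SC FC and SC ST and between SC ST and CM HT, and for Npas4 also 2, between CM FC and SC FC and between SC ST and SC HT. For Arc no 2 neighbouring groups were separate.

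Within groups, most pairs of members were positively correlated across arrays. Over the 23 arrays, after the mean of each group was taken away, 39 of 45 pairs of members had a correlation above 0, with a median r of 0.34 and a range of -0.28 to 0.82. Egr4, Arc and Nr4a1 had the highest median r with the other 9 members (0.54, 0.51 and 0.50), and Junb and Egr3 the lowest (0.15 and 0.15). These arrays share slides and mice, and SC groups span slides. The same figures for other sets of genes were not worked out, so the correlations are given as a description.

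Single arrays stood out in this. CM ST O54 was above its group mean in 10 of 10 members, by 0.31 on average, and CM ST O52 above it in 1 of 10, with an average of -0.35. CM HT O58 was above in 9 of 10 (0.35), and SC HT L58, the 1 SC HT array on slide 2, was above in 2 of 10 (-0.26). Within CM ST all arrays shared slide 1, and within CM HT all shared slide 2, so the spread of each of these groups lay within 1 slide. The other SC HT arrays were on slide 3, so mouse and slide cannot be told apart for SC HT L58.

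**Figure D4:**
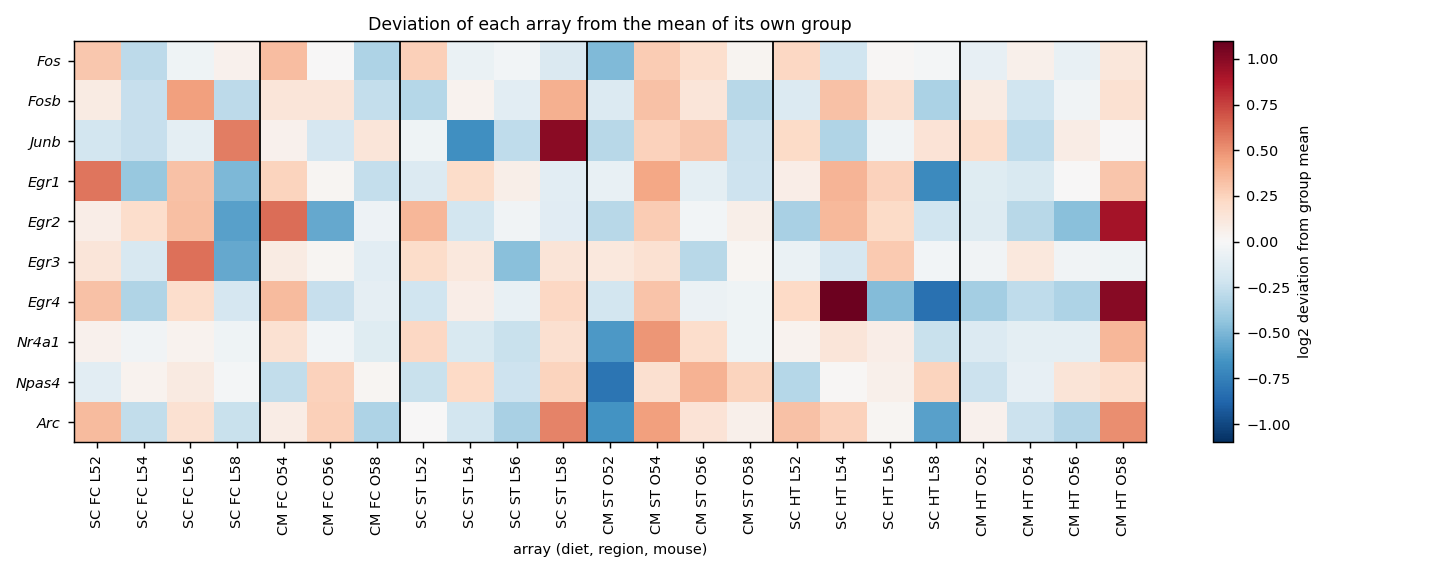
Deviation of each array from the mean of its own diet and region, for each gene (red above, blue below, log2 scale), with lines between groups. CM ST O54 and CM HT O58 were above their group means for nearly all genes, and CM ST O52 was below for 9 of 10.

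The rows most like the mean of the members over all 23 arrays were Tnfrsf25, Ulk3, Prkab2 and Sh3rf3, with r of 0.96 each, and an unnamed probe, also at 0.96. These r are over levels, so differences between regions and diets are part of them. After the group means were taken away, the most alike were Tctn3 (0.88), Fam98a (0.76) and Cx3cl1 (0.75) and 2 probes for long noncoding RNAs (0.78 and 0.75).

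Lists of other genes of the activity response are read against the share of all rows called, which was 28.6% in FC (15.4% higher and 13.2% lower), 9.82% in ST (3.45% and 6.37%) and 0.43% in HT. Of 14 other immediate early regulators such as Klf10, Ier5 and Nr4a3, 0 passed in FC, ST or HT (limma, adjusted p), and their medians were 0.00, 0.07 and 0.03. Of 7 AP-1 partners and related factors, 2 were lower in FC in CM mice, Atf3 (-0.78, adjusted p = 0.00032) and Jun (-0.47, 0.0061), and 0 passed in ST or HT. The 2 of 7 in FC were near the 28.6% of all rows. Atf3 is a stress-induced factor and Jun the main partner of Fos.

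Of 17 activity-regulated effectors, 1 was higher and 2 were lower in FC (28.6% of all rows called), and 1 was higher and 2 were lower in ST (9.82%). In FC these were Rheb (0.47), an activator of mTORC1, Pim1 (-0.41), a kinase, and Gadd45b (-0.29), a growth arrest gene linked to DNA demethylation. In ST they were Rgs2 (0.56), a regulator of G protein signals, Rheb (-0.41) and Gadd45b (-0.37). Of 7 MAP kinase phosphatases, which shut off the kinases that drive the members, Dusp6 (0.57) and Dusp1 (0.46) were higher and Dusp10 (-0.50) lower in FC (28.6% of all rows called), and 0 passed in ST (9.82%).

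Of 16 upstream factors, kinases and Egr corepressors, 2 were higher and 1 lower in FC (28.6% of all rows called), and 1 was higher and 1 lower in ST (9.82%). Mef2a, an activity-dependent transcription factor, was higher in FC (0.87, limma, adjusted p = 0.00038) and lower in ST (-0.63, 0.023). Crtc1, a CREB coactivator, was higher in FC (0.38), and Mapk3 lower (-0.44). In ST Mef2d was higher (0.30). No gene of these lists passed in HT, and under the fixed slide block no row of the table passed in any of the 3 diet comparisons.

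Heat shock genes, which respond to tissue handling and other stress, gave 0 of 5 measured genes in FC and HT and 2 higher in ST, Dnajb1 (0.32) and Hsph1 (0.31), where 3.45% of all rows were higher. Their part in the ST result was not tested.

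Between regions, genes of the related lists passed in both directions. In HT against FC on SC, 12 of 16 upstream factors were lower and 1 was higher, with Mef2c (-3.01), Camk2a (-2.14) and Camk4 (-1.60) the lowest. Camk2a and Camk4 encode calcium-dependent kinases. Of the effectors 7 were lower and 3 higher, from Inhba (-2.38) and Ptgs2 (-2.24) to Rasd1 (3.06), a Ras-like protein. Of the other immediate early regulators 6 were lower and 1 higher, with Ier5 (-2.07), Klf10 (-1.89) and Nr4a3 (-0.82) named by size. Fosl2 (-1.24), Batf (-0.43) and Jund (-0.38) were lower among the AP-1 partners and Dusp14 (-1.65) and Dusp6 (-0.67) among the phosphatases, and these shares stand beside 20.4% of all rows lower and 22.8% higher.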

How the data were processed

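Per the labels and file headers, total RNA was labelled with Cy3 and hybridized to one-color Agilent mouse gene expression arrays, and the linear spot intensity the authors deposited came from Feature Extraction 10.7.3.1. The authors also deposited normalized log2 values, rebuilt here from median intensities to within 5e-09. The rebuild took normexp background correction with an offset of 0, quantile normalization, a filter on dim probes and the mean over spots of a transcript, which left 31395 rows. The filter kept probes whose log2 value was over 1.1 times the 95th percentile of the log2 values of 308 negative controls, on 4 or more arrays.

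All 23 arrays were fitted in limma 3.58.1 (R 4.3.3, statmod 1.5.0) with 6 group means, array weights, which the analysis code of the study uses, and a random mouse block (correlation -0.0398), as in its methods. The weights were estimated gene by gene and ran from 0.222 (SC ST L58) to 2.74 (CM FC O56). Fitted differences are therefore weighted and can depart from those of the plain group means. Empirical Bayes moderation and Benjamini-Hochberg adjustment over all rows followed. A gene passed at an adjusted p under 0.05. The thresholds of the study (2-fold and 0.01 in FC and ST, 1.5-fold and 0.05 in HT) were counted beside it. The number of arrays limits the precision.

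Every member was reported, and of each related list the genes that passed, up to 3 by size in a comparison, as were the 5 rows most like the members' mean by each measure. Members, related lists, the weight estimator and the tests were chosen with earlier results of these data known. A listed gene with several rows took the brightest. Alternatives changed the slide term, the block, the weights, the background offset, the signal, the scaling, the filter and the arrays used. Regions of 1 mouse correlated in their deviations at -0.486 to 0.131 (median 0.024), and the pairing comes from the mouse numbers in the titles.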

Additional observations from a re-analysis of the deposited data

Results flagged for a closer look

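In all, 4 values stood apart from the other 3 arrays of their group, out of 50 groups of 4 examined, of which chance alone gives about 1 in 20. Egr4 and Nr4a1 in CM HT were both high in mouse O58, Egr4 at 8.99 against 7.62 to 7.72 and Nr4a1 at 12.07 against 11.55 to 11.59. Egr3 in SC ST was low in L56, at 5.63 against 6.21 to 6.30. Egr3 in CM HT was at 4.58 in O54 against 4.41 to 4.43, and none of these 4 spots was well above background.

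The diet difference was lower in HT than in FC for Arc, by a difference of -1.45 (limma, adjusted p = 0.0088), and for Egr1, by -1.05 (adjusted p = 0.020), in a test of the difference between the regions. The CM FC arrays shared slide 3 and the CM HT arrays slide 2.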

How the results depend on the processing

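Of 3420 values of single genes under an alternative, 103 changed sign but passed neither in the main fit described above nor under the alternative. Only values that passed in the main fit could lose the call. In all, 88 lost the call, 53 gained one and 4 reversed, with a pass on at least 1 side. The 4 were the HT minus FC diet differences of Arc and Egr1 with slide as a fixed block (0.062 and 0.024) and, in a setting chosen after seeing the data, with that block and no array weights (0.14 and 0.018). Counts of members passing were, in the order FC, ST and HT between diets, 3, 2 and 0. With slide as a fixed block they fell to 0 in FC and 0 in ST, and in HT against FC on SC from 8 to 5, and in the HT minus FC diet difference from 2 to 0. Without array weights as well, they were 0, 0 and 0 for FC, ST and that difference, 2 for ST against FC, 9 for HT against FC and 10 for HT against ST. With slide as a random block, 1 passed in FC, 0 in ST and 0 in the HT minus FC difference. Without array weights, the 3 counts were 1, 0 and 0, and 2 passed in ST against FC on SC. In ST between diets, REML weights gave 4, scaling by the 75th percentile 1, no filter 1 and only the arrays of ST 0, and the 75th percentile gave 1 in HT, Egr3 (-1.86), which was dim. The cause was not tested. With the mouse as a fixed replicate block, ST against FC on SC gave 2 passing and HT against ST 9, where the random mouse block gave 0 and 7. With the mouse number as a fixed replicate block between diets, which pairs mice that share only a number (r of -0.321 to 0.136), FC gave 2 passing, ST 3 and HT 0.

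Leaving out 1 array gave 1 to 4 members in FC, 0 to 5 in ST and 0 to 0 in HT between diets, 0 to 3 in ST against FC, 7 to 9 in HT against FC and 6 to 9 in HT against ST on SC. The diet differences between regions gave 0 to 1 (ST minus FC), 1 to 3 (HT minus FC) and 0 to 1 (HT minus ST). In FC the count was 1 without SC FC L54 or SC FC L58. The HT minus FC count was 1 without either of these, SC HT L54, SC HT L56 or CM FC O54. In ST, 1 passed without SC FC L56 or L58, SC ST L56 or L58, SC HT L56 or L58, CM HT O52, O54 or O56, or CM ST O58. Falls in HT of Fosb, Egr1, Egr3, Egr4 and Nr4a1 against FC were kept in all 23 fits that left out 1 array and in all 15 other alternatives. For Egr3 the estimate ran from -1.82 to -0.61 over these fits, and 1 of 4 SC HT arrays was well above background.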
